A study of Oryza sativa with 40 samples.

Results

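Catalases and ascorbate peroxidases remove hydrogen peroxide, and their transcripts were followed here through the day and night in the leaves of the japonica rice Nipponbare (Oryza sativa). The members are the probe sets whose annotated gene symbol or synonym is catA, catB or catC, or OsAPX1 to OsAPX7. The rule found 17 probe sets, of 8 genes, among 57194 rice probe sets on the Affymetrix Rice Genome array. Of the 10 genes it names, catC matched no entry of the annotation used and OsAPX3 had no probe set paired with it. The members comprised 3 probe sets of catA, 5 of catB, 4 of OsAPX2 and 1 each of OsAPX1, OsAPX4, OsAPX5, OsAPX6 and OsAPX7. Probe sets of 1 gene read the same transcript, or overlapping stretches of it, and are not independent of each other. Where a gene has several, they are lettered here in the order of their names (catA-a to catA-c, catB-a to catB-e, OsAPX2-a to OsAPX2-d), and the plots give the array's own name beside each.

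The study hybridised 40 arrays, 20 from seedling leaves and 20 from flag leaves (the last leaf below the panicle), with 2 biological replicates at each of 10 time points, every 4 h over 36 h. Seedlings were 17 days old and were raised in a greenhouse, at 28 °C in the light and 25 °C in the dark. Flag leaves came from plants of 3 months that were grown in the field and then moved to a greenhouse, at 32 °C in the light and 30 °C in the dark. Both greenhouses gave 12 h of light and 12 h of dark. Hours are counted from the midnight before the first sampling day, so that 8 h, the first harvest, is the end of the night, 20 h the first dusk, 32 h the second dawn and 44 h the second dusk. Tissue, age and growth conditions differ together and cannot be told apart in any difference between seedling and flag leaves. In whole leaves, fewer cells of a type and less RNA per cell cannot be told apart either. Nothing in the labels says whether the replicates were separate plants or pools, so p-values measure the spread between these samples.

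Catalase splits hydrogen peroxide into water and oxygen without any other substrate, and in leaves it works mainly in peroxisomes, where glycolate oxidase makes hydrogen peroxide during photorespiration in the light. Ascorbate peroxidase reduces hydrogen peroxide with ascorbate, which monodehydroascorbate reductase, dehydroascorbate reductase and glutathione reductase then regenerate in the ascorbate-glutathione cycle. Isoforms of ascorbate peroxidase are found in the cytosol, peroxisomes, chloroplasts and mitochondria, and OsAPX1 and OsAPX2 are the cytosolic forms of rice.

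The signal is the brightness of a probe set after each array had been scaled to a common target. The mean signal over all rice probe sets was 696 to 733 on the seedling arrays and 753 to 877 on the flag leaf arrays, and replicate arrays of 1 time point correlated at 0.962 to 0.990 across probe sets. The number of arrays limits the precision. Leaf genes were bright as labelled, with mean signals of 21146 in seedlings and 38789.6 in flag leaves for Rubisco activase (rca, 1 of 4 probe sets), although 2 of 11 leaf marker probe sets, both of the Rubisco small subunit, were under 40 in both tissues. Of 5 probe sets of endosperm storage proteins, 3 had means under 40 in both tissues, and of the 2 for the glutelin GLUA2, 1 had 65.4 and 135 and the other 1194 and 1678. Replicate 2 of the flag leaves was above replicate 1 for all 5 at 8, 12 and 16 h. It was above for 4 of 5 at 20, 24 and 44 h, and for 2 or 3 of 5 at the other hours. GLUA1 read 136.8 and 254.9 in replicate 2 at 8 and 12 h, against 2.7 and 7.3 in replicate 1. At 16 h it read 15.7 against 2. The summed signal of the 5 was 2151.6 and 3685.4 on the 2 arrays of 8 h. It was 1845.1 and 2480.3 on those of 12 h, 948.9 to 3089.4 on the other 16 flag leaf arrays and 1014 to 1641 on the seedling arrays. Most of the sum was the brighter GLUA2 probe set, with 2090.5 and 3141 at 8 h in flag leaves. That probe set read 2691.3 and 2926.5 at 32 h, the other dawn, so the sum mostly follows its daily course. The SD of the log2 difference between replicates was taken across probe sets with a mean of at least 100. In flag leaves it was 0.601 and 0.562 at 8 and 12 h and 0.442 to 0.506 at the other 8 hours. In seedlings it was 0.578 at 40 h against 0.338 to 0.388 at the other 9. One OsAPX2 probe set, OsAPX2-b, stayed at or below 98.2 in seedlings and 150 in flag leaves and was below the mean of 100 set for the tests. The other 16 were tested with limma on log2(signal + 32), with Benjamini-Hochberg adjusted p-values over all probe sets tested, and "called" means an adjusted p under 0.05.

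The transcript of catA had the widest daily range of the catalases. In seedling leaves its probe set catA-b read 1437 and 1337 on the 2 arrays at 8 h, 11799 and 12574 at 12 h, 18592 and 18049 at 20 h, 3334 and 3182 at 24 h, and 591 and 577 at 32 h. It was thus high through the light period, dropped within 4 h of darkness and was lowest at the end of the night, with no overlap between the arrays of these hours. The mean at 20 h was 31.4 times that at 32 h. On the second day the values were 8334 and 8397 at 36 h and 16369 and 16875 at 44 h, the same order as on the first. The others, catA-a and catA-c, spanned 10.6-fold and 9.99-fold.

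In flag leaves catA took another course in the morning. catA-b read 7601 and 5099 at 8 h, 2661 and 694 at 12 h, 22198 and 12632 at 16 h, and 43085 and 38254 at 20 h. After 4 h of light the signal was thus below that of dawn, with no overlap, where in seedlings it was above: the mean at 12 h was 0.264 times that at 8 h in flag leaves and 8.79 times in seedlings. The second morning gave 1671 and 1676 at 32 h and 1858 and 918 at 36 h in flag leaves, a ratio of 0.829, against a ratio of 14.3 in seedlings. The arrays of 32 h and 36 h overlap in flag leaves. Both other catA probe sets had lower means at 12 h than at 8 h in flag leaves, at ratios of 0.402 and 0.419, and higher means in seedlings, at 4.48 and 4.38. These single steps were not tested. In replicate 1, where GLUA1 was at 2.7 and 7.3, the ratio of 12 h to 8 h was 0.35 to 0.592 over the 3 probe sets, and in replicate 2 it was 0.136 to 0.239. The replicates differed most at 12 h, where replicate 1 of catA-b was above replicate 2 in flag leaves by 2661 against 694. In the dark the flag leaf signal went down as in seedlings, to 11531 and 8230 at 24 h and 3195 and 3676 at 28 h, and the mean at 20 h was 29.3 times that at 36 h.

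**Figure D1:**
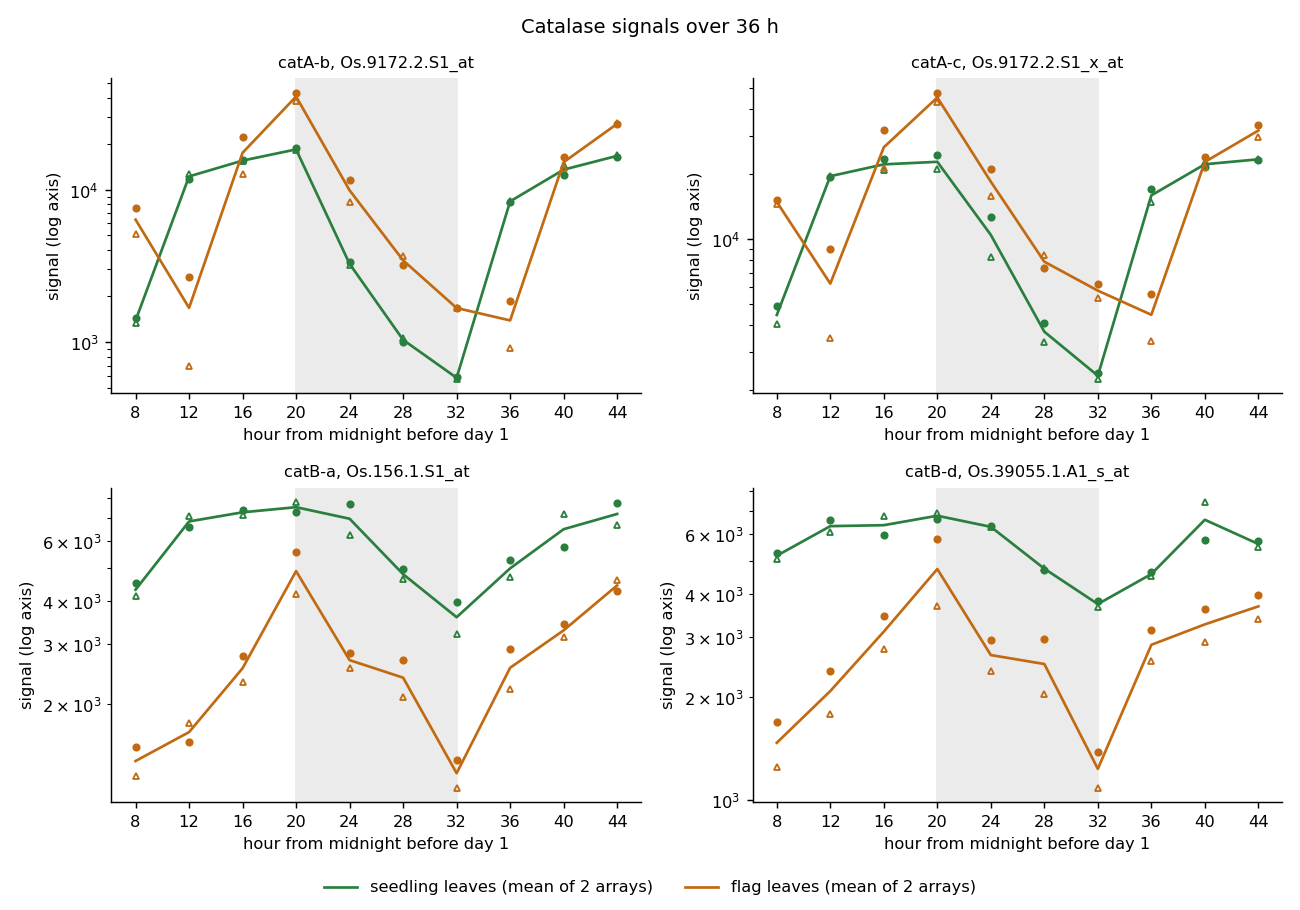
Signals (log axis) of 2 catA and 2 catB probe sets against the hour, in seedling leaves (green) and flag leaves (orange), with replicate 1 as filled circles, replicate 2 as open triangles, lines through the means of 2 arrays and the dark period from 20 to 32 h in grey. catA is high by 12 h in seedling leaves and low at 12 h in flag leaves, and both tissues are high at 20 h, while both catB probe sets run lower in flag than in seedling leaves at every hour.

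A 24-h cosine fitted to both replicates gave the peak time and the amplitude, which on the log2 scale is how far the cosine rises above its own middle. The error in these fits, and in their p-values, holds departures from the cosine shape as well as the spread between replicates. It was called for 11 of 16 members in seedling leaves, where 42.5% of all probe sets tested were called, and for 14 of 16 in flag leaves, where 69.5% were. The median amplitude of the members was 0.50 in seedlings and 0.70 in flag leaves, against 0.24 and 0.43 over all probe sets tested. All 8 catalase probe sets were called in both tissues, and of the 8 of ascorbate peroxidases 3 were called in seedlings and 6 in flag leaves.

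For catA the amplitude was 2.45 ± 0.18 (SE, limma adjusted p = 1.8e-08) in seedlings and 2.15 ± 0.29 (adjusted p = 1.1e-05) in flag leaves by catA-b, and 1.63 to 1.69 and 1.40 to 1.44 by the other probe sets. The fitted peak lay at 17.3 to 17.4 h in seedlings and at 20.5 to 20.7 h in flag leaves. The fitted peaks of the 3 probe sets were thus 3.1 to 3.5 h later in flag leaves. The 95% interval was 1.6 to 4.6 h for the brightest of them, catA-c. This delay is one of the fitted cosine, whose course also includes the morning, and catA was high at the 20 h samples of both tissues. The cosine differed between tissues for all 3, by 1.22 to 1.96 on the log2 scale (adjusted p = 0.00035 to 0.0017), as it did for 11 of the 16 members and for 41.8% of all probe sets tested. With replicate 1 left out of both tissues the 3 calls ended (adjusted p = 0.051 to 0.067), as they did without replicate 2 (0.066 to 0.16). Without the replicate 2 arrays of 8 and 12 h in flag leaves the 3 calls remained (0.00027 to 0.0018) and the delay of catA-c was 2.7 h (1.4 to 3.9 h), and without the 40 h arrays it was 3.6 h (1.9 to 5.2 h).

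The transcript of catB moved less through the day and ran at a lower level in flag leaves. In seedlings catB-a read 4510 and 4139 at 8 h, 7285 and 7799 at 20 h, and 3984 and 3199 at 32 h. In flag leaves it read 1494 and 1229 at 8 h, 5589 and 4213 at 20 h, and 1374 and 1134 at 32 h. In both tissues the arrays of dusk were above those of either dawn with no overlap, and the means at 20 h were 2.10 and 3.91 times those at 32 h. The amplitude was 0.48 (SE 0.06, limma adjusted p = 1.8e-05) at a peak of 19.2 h in seedlings and 0.72 (SE 0.09, adjusted p = 5.5e-06) at 20.2 h in flag leaves. Of the other catB probe sets, catB-b, catB-d and catB-e peaked at 18.5 to 19.6 h in seedlings and 19.4 to 20.7 h in flag leaves. The fifth, catB-c, was dim, with a mean of 203 in seedlings and 136 in flag leaves, and peaked earlier, at 16.2 and 15.4 h. Calls of 3 catB probe sets in seedlings and 2 in flag leaves ended with 1 replicate left out (adjusted p = 0.051 to 0.13), and that of catB-a did not. The call of the dim catB-c in flag leaves also ended without the 40 h arrays (0.096) and with no filter on low signals (0.057).

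No catB probe set was called for a difference in rhythm between tissues (adjusted p = 0.066 to 0.57), although with the replicate block in the fit catB-d was (0.025), and without the linear time term catB-a (0.023) and catB-d (0.018) were. For the brightest, catB-a, the peak in flag leaves was 1.0 h later, with an interval of -0.46 to 2.5 h, which overlaps the interval of catA. Whether the delays of catA and catB differ was not tested. In seedlings catB peaked after catA by 1.7 h (0.95 to 2.5 h, brightest probe sets), and in 9 of 15 pairs of their probe sets the interval excluded 0. The 3 pairs with the dim catB-c ran the other way, down to -1.2 h, with intervals that included 0. In flag leaves the difference was -0.36 h (-2.1 to 1.4 h), and the 3 of 15 intervals that excluded 0 were those of catB-c. So the order catA before catB was measured in seedlings, and in flag leaves no order of catA and catB was resolved, apart from that dim probe set.

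OsAPX1, a cytosolic ascorbate peroxidase, had a night peak in seedlings and no called rhythm in flag leaves. In seedlings its signals were 2483 and 3124 at 12 h, 5828 and 5983 at 24 h, 5417 and 6089 at 28 h, and 2982 and 3209.9 at 36 h, so the arrays of the night lay above those of noon with no overlap. The amplitude was 0.58 (SE 0.06, limma adjusted p = 1.2e-06) and the peak was at 1.9 h, after midnight. In flag leaves the 20 arrays ran from 6375 to 11460.2 with a median of 8538, the amplitude was 0.01 (SE 0.09, adjusted p = 0.99), and the replicate series correlated at 0.452. The cosine differed between tissues by 0.59 (adjusted p = 0.00011), and this call ended without replicate 1 (adjusted p = 0.067).

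OsAPX2, the other cytosolic form, had a midday peak in flag leaves and none in seedlings. In flag leaves OsAPX2-a read 27207 and 30468 at 8 h, 38658 and 34398 at 12 h, 27126 and 28546 at 16 h, 8425 and 7240.5 at 20 h, and 16685 and 16804 at 32 h. The signal thus dropped within the last 4 h of the light and recovered through the night, and the second day gave 35834 and 32461 at 36 h and 7354 and 7119 at 44 h. The mean of the light hours 12, 16, 36 and 40 h was 2.88 times that of 24 and 28 h by this probe set, 5.66 times by OsAPX2-d and 13.3 times by OsAPX2-c. The amplitudes were 1.14 ± 0.12 (SE, limma adjusted p = 4.3e-07), 1.71 ± 0.17 (3.9e-07) and 2.26 ± 0.32 (1.8e-05), at peaks of 11.9, 12.5 and 13.2 h.

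In seedlings the same probe set of OsAPX2 stayed between 14406 and 22944 at the 9 time points from 8 to 40 h, and read 7622 and 6512 at 44 h. No cosine was called for the 3 probe sets (adjusted p = 0.47 to 0.72). The difference in cosine between tissues was 1.11, 2.23 and 1.76 for OsAPX2-a, OsAPX2-c and OsAPX2-d (adjusted p = 1.1e-05 to 5.7e-05). It was called for each with either replicate left out, except OsAPX2-c without replicate 2 (0.063).

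The peroxisomal form, OsAPX4, followed the light in seedlings. It read 5250 and 3633 at 8 h, 7404 and 7628 at 12 h, 4161 and 3872 at 24 h, and 7209 and 7434 at 36 h, and the arrays of 12 and 36 h were above those of 8, 24, 28 and 32 h. The amplitude was 0.52 (SE 0.08, limma adjusted p = 0.0002) at 16 h, and the call ended without replicate 2 (0.12). In flag leaves the highest values were those of 8 h, 9886 and 8834, the arrays ran from 5387 upward with a median of 6911, and no cosine was called (amplitude 0.09, adjusted p = 0.58). The cosine differed between tissues by 0.54 (adjusted p = 0.0015), with the call ended without either replicate (0.063 and 0.18).

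OsAPX5 and OsAPX6, forms predicted for organelles and encoded by neighbouring genes in the RefSeq annotation, and OsAPX7, a chloroplast form, were rhythmic in flag leaves. OsAPX5 read 264 and 301 at 8 h and 907 and 1029 at 20 h there, with an amplitude of 0.67 (SE 0.07, limma adjusted p = 5.6e-07) and a peak at 19.4 h. OsAPX7 read 550.1 and 339 at 8 h, 1838 and 2455 at 16 h, and 2436 and 2368 at 40 h, with an amplitude of 0.98 (SE 0.12, adjusted p = 3.9e-06) and a peak at 17.9 h. Both thus had their lowest array at the first dawn and their highest in an afternoon or at dusk. OsAPX6 moved less, from 1277 and 1310.4 at 8 h to 2412 and 2695 at 16 h, with an amplitude of 0.30 (SE 0.08, adjusted p = 0.0066) at 16.3 h, and the call ended without replicate 1 (0.11) or 2 (0.18).

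In seedlings OsAPX7 was highest at 20 h, with 1159.8 and 1198, and at 24 h, with 1142 and 1201. Its cosine had an amplitude of 0.36 (SE 0.07, limma adjusted p = 0.0014) and a peak at 21.0 h, which left the peak in flag leaves 3.2 h earlier than in seedlings (interval -5.1 to -1.3 h). The call in seedlings ended without replicate 1 (0.084) or 2 (0.12). OsAPX5 and OsAPX6 were not called in seedlings (adjusted p = 0.36 and 0.51). Without the arrays of 44 h OsAPX5 was called there, at 18.3 h with an amplitude of 0.27 (SE 0.05, adjusted p = 0.0013). The cosine differed between tissues for OsAPX5 by 0.58, for OsAPX6 by 0.38 and for OsAPX7 by 0.79 (adjusted p = 0.0019, 0.019 and 0.00023). Without replicate 1 these calls ended (0.092, 0.26 and 0.056), and without replicate 2 those of OsAPX5 and OsAPX6 did (0.14 and 0.29).

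**Figure D2:**
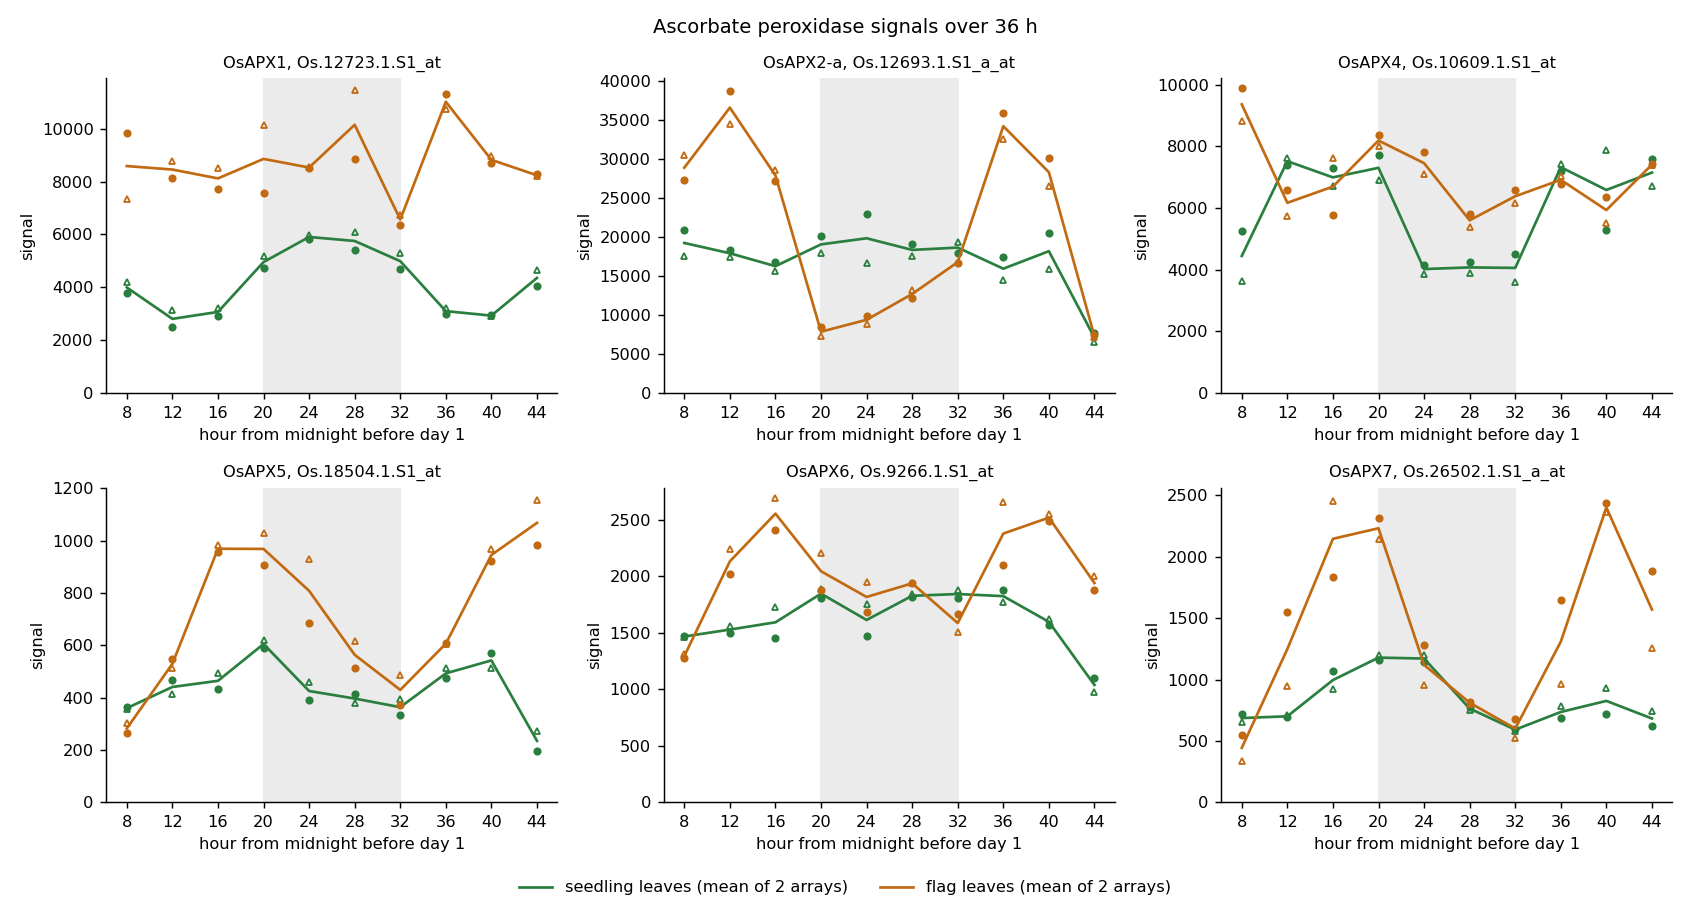
Signals of the brightest probe set of each ascorbate peroxidase gene against the hour, in seedling leaves (green) and flag leaves (orange), with replicate 1 as filled circles, replicate 2 as open triangles, lines through the means of 2 arrays and the dark period in grey. OsAPX2 peaks at 12 and 36 h in flag leaves and is flat in seedlings until it falls at 44 h, and OsAPX1 is high at night in seedlings only.

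Set in order, the isoforms of seedling leaves peaked as OsAPX4 (16 h), catA (17.4 h), catB (19.2 h), OsAPX7 (21.0 h) and OsAPX1 (1.9 h), each by its brightest probe set. In 9 of 10 pairs of these genes the 95% interval of the difference excluded 0, and that between the neighbours catB and OsAPX7 included it (1.9 h, -0.053 to 3.8 h). In flag leaves the order was OsAPX2 (11.9 h), OsAPX6 (16.3 h), OsAPX7 (17.9 h), OsAPX5 (19.4 h), catB (20.2 h) and catA (20.5 h), and the interval excluded 0 in 11 of 15 pairs. The interval between OsAPX6 and OsAPX7 included 0 (1.6 h, -0.18 to 3.4 h), as did those between OsAPX5, catB and catA. The intervals keep the correlation of errors between probe sets on the same arrays, and no p was computed for them. With samples 4 h apart, a fitted peak between samples rests on the cosine shape.

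**Figure D3:**
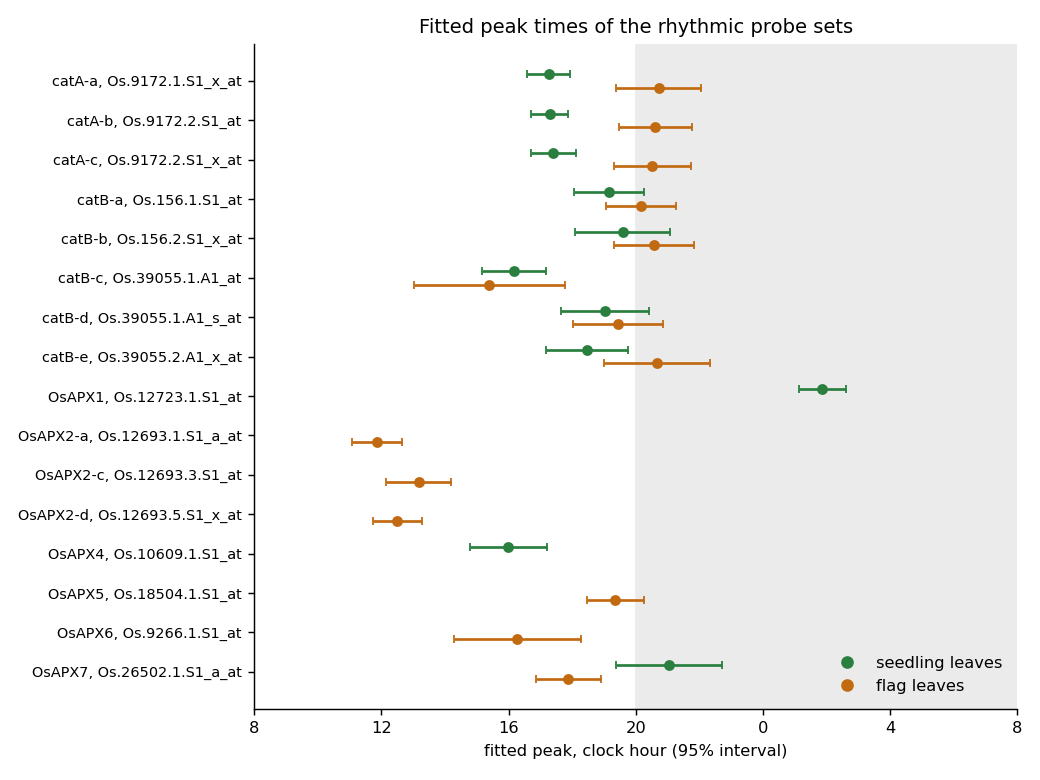
Fitted peak times on a clock axis from 8 h to 8 h, with 95% intervals, of the member probe sets whose cosine was called, in seedling leaves (green) and flag leaves (orange), with the dark period in grey. The catA points of flag leaves lie 3.1 to 3.5 h to the right of those of seedlings, and the 3 OsAPX2 points, in flag leaves only, lie at 11.9 to 13.2 h.

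Criteria after those of the study called a probe set diurnal when the replicate series correlated at 0.5 or more (Cr) and both replicates passed a cross-correlation with 24-h cosines (CC, p of at most 0.05) or the spectral method ARSER (q of at most 0.05, rewritten here). The study states these limits as strict ones, under which 8 and 11 members were called as well. In seedlings 8 of 17 members were diurnal, where 9.54% of all rice probe sets were, namely the 3 of catA, 4 of catB and OsAPX1. In flag leaves 11 of 17 were, where 19% of all were, namely the 3 of catA, 3 of catB, 3 of OsAPX2, OsAPX5 and OsAPX7. The rates over all probe sets include many too dim to pass, so the 2 shares are not over like signals. In both tissues the rate over all probe sets was below the share that the study itself reported as diurnal. The replicate series of catA correlated at 0.980 to 0.995 in seedlings and 0.975 to 0.977 in flag leaves. Nearly all of these calls rest on CC, since the rewritten ARSER alone called 3 members in seedlings and 2 in flag leaves.

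A test that assumes no cosine, of equal means at the 10 hours, was called for all 16 members in seedlings (46.6% of all probe sets tested) and for all 16 in flag leaves (69%). The range between the highest and the lowest hourly mean had a median of 1.33 in seedlings and 1.91 in flag leaves on the log2 scale, against 0.92 and 1.24 over all probe sets. Without the 44 h arrays 12 of 16 were called in seedlings, and the 3 probe sets of OsAPX2 (adjusted p = 0.17 to 0.71) and OsAPX6 (0.23) were not. Fewer were called without replicate 1 or replicate 2 of the seedlings. With a replicate of 1 tissue left out, each of its hours had 1 array, and the error came from the pairs of the other tissue alone. In flag leaves the calls of OsAPX1 and OsAPX4 ended without replicate 1 (0.057 and 0.30) or 2 (0.086 and 0.30) and with no filter on low signals (0.068 and 0.051), that of OsAPX4 also after quantile normalization (0.068), and that of catB-c without replicate 1 (0.10).

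Averaged over the 10 hours, catB was lower in flag than in seedling leaves by all 5 probe sets. The means of its brightest, catB-a, were 6007 ± 1460.2 (SD over 20 arrays) in seedlings and 2708 ± 1222.8 in flag leaves, and the arrays of the tissues did not overlap at any hour. The log2 difference was -1.23 (SE 0.06, limma adjusted p = 6.0e-16), and -0.50 to -1.51 for the other 4. The level test takes the 10 hours of a replicate as independent, although replicate deviations at different hours correlated within each tissue. The standard errors and p-values of all level differences given here can therefore be too small. In all, 10 members were called higher in flag leaves, where 39.3% of all probe sets were, and 5 were called lower, where 38.3% were. After quantile normalization the split turned, with 5 higher (OsAPX1, OsAPX2-c, OsAPX5, OsAPX6 and OsAPX7) and 7 lower (the 5 of catB, OsAPX2-a and OsAPX2-d), against 44.9% and 35.4% of all probe sets. The number called higher was also 6 without replicate 1 of the flag leaves and 6 without replicate 2 of the seedlings. Signals of different probe sets are not set against each other here, since brightness depends on the probes.

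OsAPX1, OsAPX5, OsAPX6 and OsAPX7 were called higher in flag leaves under both scalings. OsAPX1 had a mean of 4184 ± 1178.8 (SD over 20 arrays) in seedlings and 8738 ± 1377.2 in flag leaves, with no overlap at any hour nor between the highest seedling array, 6089, and the lowest flag leaf array, 6375. Its log2 difference was 1.09 (SE 0.05, limma adjusted p = 5.3e-16), followed by OsAPX5 with 0.62, OsAPX7 with 0.55 and OsAPX6 with 0.30 (adjusted p = 8.3e-07 or less). OsAPX4 was called at 0.27 (adjusted p = 0.0001), but not after quantile normalization (0.059). The 3 probe sets of OsAPX2 disagreed, with 0.83 for OsAPX2-c, 0.12 for OsAPX2-a (adjusted p = 0.036), which turned to -0.38 after quantile normalization, and -0.03 for OsAPX2-d (0.62), which was -0.42 and called lower after quantile normalization (6.7e-07). Without the 40 h arrays OsAPX2-a was not called (0.30) and OsAPX2-d was called lower (-0.14, adjusted p = 0.045). For catA the difference was 0.27 to 0.32 (adjusted p = 0.006 to 0.032), but after quantile normalization it was -0.07 for catA-a and catA-c and was called for none of the 3, so no direction is given for it. These calls also ended without replicate 1 of the flag leaves (0.11 to 0.74) or replicate 2 of the seedlings (0.14 to 0.21).

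**Figure D4:**
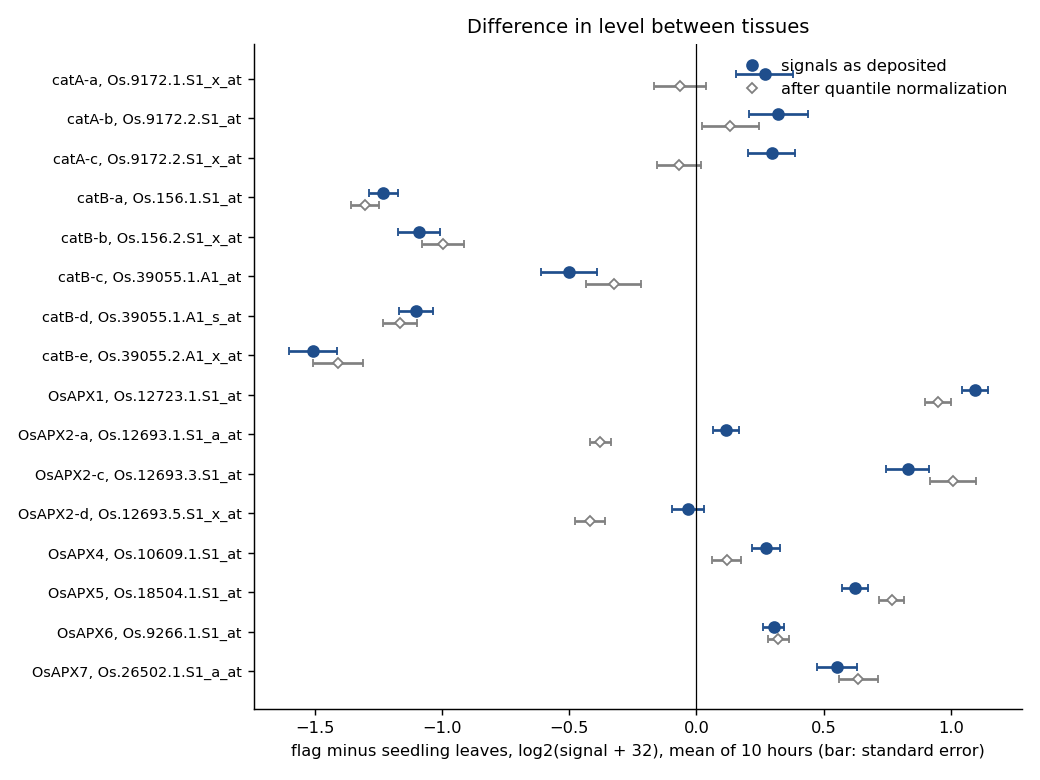
Difference in mean log2(signal + 32) between flag and seedling leaves over the 10 hours for the 16 member probe sets tested, with standard errors, from the signals as deposited (blue circles) and after quantile normalization (open diamonds). The 5 catB probe sets lie left of 0 and OsAPX1 near 1.09, and 2 catA probe sets and 1 of OsAPX2 change sides between the scalings.

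The 2 dusks, 20 h and 44 h, are the same clock time a day apart. In seedlings OsAPX2 was much lower at the second: OsAPX2-a read 20091 and 17940 at 20 h and 7622 and 6512 at 44 h, OsAPX2-c 476 and 312 against 61.0 and 47.4, and OsAPX2-d 17518 and 14746 against 3255 and 2918. None of these arrays overlap between the dusks, and the log2 differences were -1.43, -2.28 and -2.37 (limma adjusted p = 9.0e-09 to 1.0e-06). OsAPX5 was lower with 588 and 622 against 197 and 274, at -1.27 (adjusted p = 3.4e-06), OsAPX6 with 1805 and 1887 against 1101 and 975, at -0.81 (5.6e-05), and OsAPX7 with 1159.8 and 1198 against 625 and 742, at -0.76 (0.024). These 6 members were called lower of 16, where 17.5% of all probe sets were, and none was called higher. The median difference was -0.23 over the members and -0.12 over all probe sets tested. The call of OsAPX7 ended without seedling replicate 1 or 2 (differences of -0.67 and -0.86), and that of OsAPX6 without replicate 2 (-0.70). Those fits had 1 seedling array per hour and took their error from the flag leaf pairs alone.

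No catA or catB probe set was called between the dusks in seedlings, with log2 differences of -0.33 to 0.06. Of 9 leaf marker probe sets 4 were called, all higher at the second dusk, where 11.1% of all probe sets were, with a range over the 9 of -0.13 to 0.91. In flag leaves the same contrast was called for 0 of 16 members by limma, with 1 at an unadjusted p under 0.05, and for 0.597% of all probe sets. Without replicate 2 of the flag leaves, with 1 flag leaf array per hour, the log2 difference of catA-b was -0.685 in this contrast. Its difference between tissues was then -0.545. The error of that fit came from the seedling pairs alone, so no flag leaf call is read from it. The change between dusks itself differed between tissues for 5 of 16 members, against 17.9% of all probe sets, in a test added after the values were seen. They were the 3 of OsAPX2, with differences of 1.32, 2.20 and 2.27 (adjusted p = 8.8e-06 to 0.00029), OsAPX5 with 1.40 (0.00018) and OsAPX6 with 0.74 (0.0067). For OsAPX7 the difference was 0.24 (0.70). The call of OsAPX6 ended without seedling replicate 1 or 2 (differences of 0.86 and 0.63), in fits with 1 seedling array per hour.

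**Figure D5:**
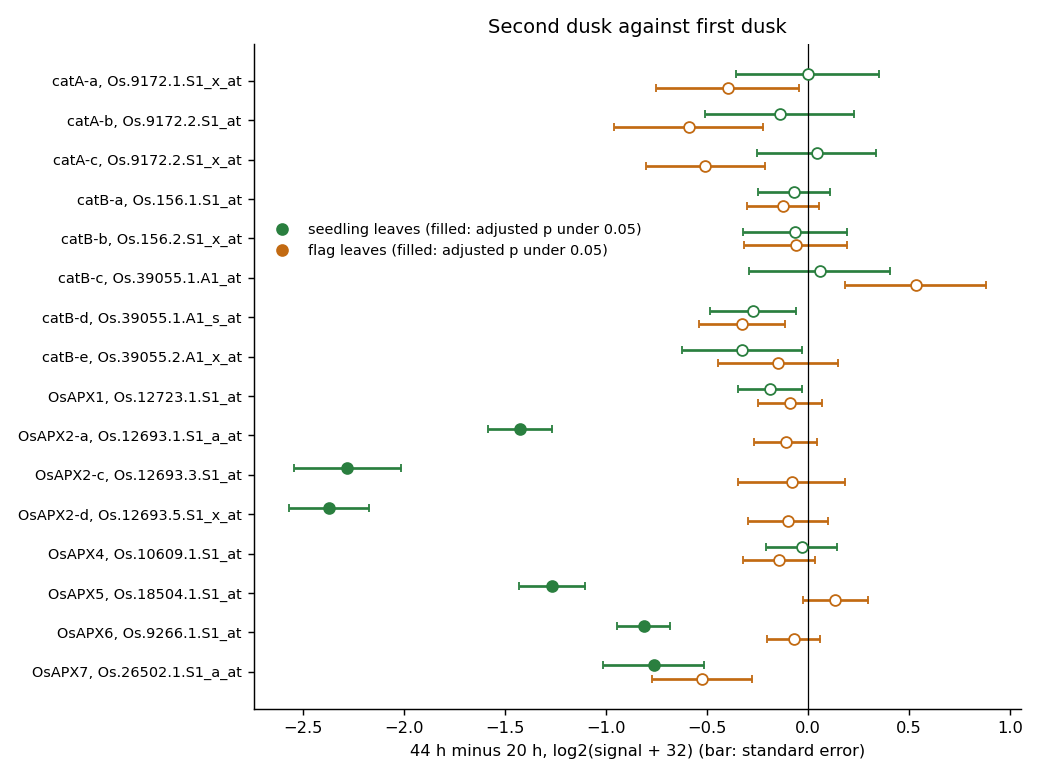
Difference in log2(signal + 32) between 44 h and 20 h for the 16 member probe sets tested in seedling leaves (green) and flag leaves (orange), with standard errors and filled points where the adjusted p was under 0.05. OsAPX2, OsAPX5, OsAPX6 and OsAPX7 lie left of 0 in seedlings, at -0.76 to -2.37, and no flag leaf point is filled.

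One more probe set, of gene LOC4331509, is described as a catalase in a supplementary list of the study but carries none of the names of the rule. The names used here do not tell whether it is the probe set of catC. It was added after its values were seen. In seedlings it was highest at 32 h, with 18512 and 21774, and lowest at 44 h, with 4917 and 5922, and 24 h, with 5510.5 and 5555. In flag leaves it ran from 34401 to 59837 and was highest at 12 h, with 59337 and 55169. The cosine put its peak at 10.2 h in seedlings (amplitude 0.67, standard error 0.14, limma adjusted p = 0.0019) and at 12.3 h in flag leaves (0.23, standard error 0.06, 0.004). By the fitted cosines this catalase thus peaked earlier in the day than catA and catB in both tissues, with no interval computed for that difference. In seedlings it was not high in the morning alone, with 15380 and 15581 at 28 h, in the dark, and 13827 and 14627 at 20 h. It was higher in flag leaves by 1.87 on the log2 scale (SE 0.05, adjusted p = 2.2e-21) and lower at the second than at the first dusk in seedlings, with a log2 difference of -1.39 (adjusted p = 2.0e-07).

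Among the 1825 genes with a name in the annotation and a mean signal of at least 100 in both tissues, the profile most like that of catA over the 20 means by tissue and hour, each tissue centred, was that of GLT2, an NADH-dependent glutamate synthase (r = 0.921). AAP-S (r = 0.916) and AMT2-1, an ammonium transporter (r = 0.892), followed. For catB they were OsPDIL1-1, a protein disulfide isomerase (r = 0.933), GRXC8, a glutaredoxin (r = 0.907), and PRMT5, an arginine methyltransferase (r = 0.905). For LOC4331509 they were PDX12 (r = 0.884), ADI1 (r = 0.882) and HPT2 (r = 0.810). These correlations describe 20 means from the same arrays and are the highest of 1825.

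Of other enzymes that make or remove hydrogen peroxide, 2 of 7 glycolate oxidase probe sets were called rhythmic in seedlings and 4 of 7 in flag leaves, against 42.5% and 69.5% of all probe sets tested. In level, 5 of 7 were called higher and 1 lower in flag leaves, against 39.3% and 38.3% of all. The brightest, of the gene GOX, was higher there by 1.42 (SE 0.05, limma adjusted p = 1.6e-17) and rhythmic in neither tissue (0.097 and 0.19). The other probe set of GOX differed, with means of 1991 in seedlings and 1883 in flag leaves, and met the criteria for diurnal in seedlings. APX8, a thylakoid ascorbate peroxidase outside the rule, was not rhythmic in either (0.10 and 0.41) and was higher in flag leaves by 0.73 (adjusted p = 1.0e-11). Of the enzymes that regenerate ascorbate, both monodehydroascorbate reductases were higher in flag leaves, with MDAR2 at 1.23 (adjusted p = 5.3e-17), and the glutathione reductase RGRC2 was not called (-0.12, 0.056).

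Superoxide dismutases, which make hydrogen peroxide from superoxide, were called rhythmic for 1 of 5 probe sets in seedlings (42.5% of all) and 5 of 5 in flag leaves (69.5% of all), and 4 of 5 were lower in flag leaves (38.3% of all). SodCc1, the brightest, had an amplitude of 0.20 in seedlings (limma adjusted p = 0.0056) and 1.14 in flag leaves (8.6e-07), and was lower there by a log2 difference of -1.10 (2.9e-13). Peroxiredoxins, which reduce peroxides with thiols, were called rhythmic for 2 of 7 seedling probe sets (42.5% of all) and for 5 of 6 of flag leaves (69.5% of all), with the brightest, of PRXIIC, at an amplitude of 0.83 in flag leaves (1.8e-06) and 0.17 in seedlings (0.20). No dehydroascorbate reductase or glutathione peroxidase was found by symbol.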

How the data were processed

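Per the labels and the study's methods, total RNA was hybridised to Affymetrix Rice Genome arrays, and the authors extracted signals with GCOS (MAS5), scaling each array to a target mean of 500; software versions are not given in the sources used here. The deposited values are linear intensities. From 57381 entries, 187 controls were removed. Gene names came from the platform annotation and RefSeq (ASM3414082v1): 22436 rice probe sets had 1 gene, 95 several and 34663 none. Lists of related enzymes were taken by symbol, since the tables used hold no gene descriptions. Members and lists were chosen with earlier results of these data known.

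limma 3.58.1 (R 4.3.3) was run on log2(signal + 32), with a cosine, sine and linear time per tissue (mean signal at least 100 in that tissue), or 1 mean per tissue and hour over 40 arrays (at least 100 in 1 tissue), Benjamini-Hochberg adjusted. CC used 60 cosines and 100000 random profiles; ARSER was rewritten with autoregressive order 6 and periods of 20 to 28 h. The tests of rhythm, difference in rhythm and level, the peak intervals within a tissue and the diurnal criteria were tried on simulated data. The tests of change over time and between dusks, and the peak intervals between tissues, were not. Named were all members, the 3 genes most like each catalase, and the brightest gene of each list.

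Within a tissue, replicate deviations at different hours correlated at 0.282 to 0.552 (seedling, 45 of 45 pairs over 0.1) and 0.196 to 0.451 (flag, 45 of 45), and between tissues at -0.225 to 0.0465, so replicate numbers paired samples within a tissue. Alternatives covered constants, filters, normalization, variance prior, the replicate block, left-out replicates, the 44 h arrays and, added after seeing the data, the 40 h arrays, 2 flag leaf arrays and strict diurnal limits. Sequences and promoters were not used here.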

Additional observations from a re-analysis of the deposited data

Results flagged for a closer look

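The following differences between seedling and flag leaves passed a test of the difference itself (limma, adjusted over all probe sets tested). The fitted 24-h cosine differed for catA by 1.39 (catA-a), 1.96 (catA-b) and 1.22 (catA-c) on the log2 scale, with adjusted p = 0.0011, 0.00035 and 0.0017. It differed for OsAPX1 by 0.59 (0.00011), for OsAPX4 by 0.54 (0.0015), for OsAPX5 by 0.58 (0.0019), for OsAPX6 by 0.38 (0.019) and for OsAPX7 by 0.79 (0.00023). For OsAPX2 the difference was 1.11, 2.23 and 1.76 by OsAPX2-a, OsAPX2-c and OsAPX2-d (2.7e-05, 5.7e-05 and 1.1e-05).

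The change from the first to the second dusk differed for the same 3 probe sets of OsAPX2 by 1.32, 2.20 and 2.27 (adjusted p = 0.00025, 0.00029 and 8.8e-06), for OsAPX5 by 1.40 (0.00018) and for OsAPX6 by 0.74 (0.0067). Each is the change in flag leaves minus that in seedlings. No test of outlying samples was run, and each hour had 2 arrays per tissue.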

How the results depend on the processing

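Changes of sign were counted only for levels and dusks, and only where the main or the alternative fit gave a call. Of 1838 values of single probe sets under the alternatives, 1719 kept their side of the threshold with no such change. Calls were lost for 99 and gained for 17, and 3 changed sign. Those 3 were levels after quantile normalization, at -0.065 for catA-a, -0.068 for catA-c and -0.38 for OsAPX2-a, which took the median of all probe sets from 0.02 to 0.09. Leaving out 1 replicate leaves 1 array per hour, and the cause of the lost calls was not tested. For level, change over time and dusks a replicate was left out of 1 tissue at a time. The error of those fits came from the pairs of the other tissue alone, so their calls do not measure the spread within the thinned tissue. The member counts then ranged over 7 to 8 (from 11) for rhythm in seedlings, 11 to 12 (from 14) in flag leaves, 3 to 4 (from 11) for difference in rhythm, 11 to 14 (from 15) for level, 7 to 8 (from 16) and 13 to 14 (from 16) for change over time in seedlings and flag leaves, 4 to 5 (from 6) and 0 to 1 (from 0) between dusks in seedlings and flag leaves, 4 to 6 (from 5) for the difference in dusk change, 8 to 11 (from 8) and 11 to 13 (from 11) for diurnal calls, and 16 to 17 (from 20) for the pairs of peak times that differed. ARSER alone called 3 members diurnal in seedlings and 2 in flag leaves. Over all probe sets, leaving out a replicate moved the calls from 10330 to 2503 to 3339 for rhythm in seedlings, from 10851 to 2955 to 3826 for difference in rhythm, from 12092 to 2420 to 3214 for change over time in seedlings, from 7424 to 1744 to 1749 between dusks in seedlings, from 155 to 648 to 870 in flag leaves and from 4643 to 1057 to 5331 for the difference in dusk change. Diurnal calls over all, 5454 in seedlings and 10857 in flag leaves, were 296 and 5284 by ARSER alone, and 9255 to 10097 and 15935 to 16527 with 1 replicate, where Cr does not apply. Rhythm calls in flag leaves were 10886 to 10902 instead of 16254. With the replicate block, which pairs samples within a tissue, catB-d was called for a difference in rhythm (0.025) and no other member call changed; the member counts were 11, 14, 12, 15, 16, 6, 16, 0 and 5 for rhythm in seedlings and flag leaves, difference in rhythm, level, change and dusks in seedlings, change and dusks in flag leaves, and difference in dusk change. Leaving out the 40 h arrays, or replicate 2 of the flag leaves at 8 and 12 h, and strict diurnal limits were chosen after seeing the data. No member count moved by over 1.5 times under them, and over all probe sets the calls between dusks in flag leaves were 197 and 233 without those arrays. Over all probe sets the block gave 582 calls between dusks in flag leaves and 7808 for the difference in dusk change, and no filter gave 80 of the former.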
